A study of Mus musculus with 26 samples.

Results

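The translation initiation and elongation factors described here are the 64 gene symbols that begin with Eif1 to Eif6 or with Eef1 or Eef2, out of 20430 symbols in the RNA tables. The rule uses the symbol and no measured value. The eIF2 kinases, whose symbols begin with Eif2ak, were left out because they are enzymes that act on eIF2 and not factors themselves. Of the 64 symbols, 53 were Eif symbols and 11 were Eef symbols, and 63 were also present in the footprint tables. The prefix also takes in regulators (Eef2k, the Eif4ebp genes, Eif4enif1) and methyltransferases of elongation factors (Eef1akmt1, Eef1akmt2, Eef2kmt), which are described by their own roles.

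NIH3T3, a line of mouse embryonic fibroblasts, was stressed by heat, by hydrogen peroxide (H2O2, oxidative stress) or by KCl (osmotic stress). PolyA-selected RNA was sequenced in 16 libraries from 8 groups: a control for heat, 44 °C for 2 h, 42 °C for 8 h, a second control shared by H2O2 and KCl, H2O2 for 2 h and 7 h, and KCl for 2 h and 7 h. Ribosome-protected mRNA fragments (footprints) were sequenced in 10 libraries from the latter 5 groups. Each group held 2 replicates, no genetic change or dose is named in the labels, and whether replicates were separate cultures is not stated, so p-values measure only the spread between these libraries. RNA libraries held 24441877 to 45244430 counts, and footprint libraries held 1460751 to 5168537 counts, so the footprint values are less precise. Among marker genes, 8 of 9 fibroblast genes were at 10 TPM (transcripts-per-million, a level per transcript length) or more in each RNA library. Their summed level was 4329 to 12106 TPM, against 0.420 to 3.37 TPM for 4 endothelial genes, 5.42 to 44.8 TPM for 5 leukocyte genes, mostly Cd68, and 36.8 to 112 TPM for 5 epithelial genes, mostly Krt19.

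Initiation factors bring the small ribosomal subunit and initiator tRNA to the mRNA cap, scan for the start codon and release as the large subunit joins. Elongation factors then deliver aminoacyl-tRNA (eEF1A, recharged by the eEF1B complex) and move the ribosome along the message (eEF2). Many mRNAs of the translation machinery, those of eEF1A, the eEF1B subunits, eEF2 and some eIF3 subunits among them, start with a run of pyrimidines called a 5′ terminal oligopyrimidine (TOP) tract, through which mTOR signalling controls their translation. Stress kinases also limit initiation by phosphorylating eIF2, which then blocks its exchange factor eIF2B.

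The sequences around the annotated gene starts are shown for the members whose translational efficiency fell after 7 h of H2O2, the result on which the footprint data turned, since a TOP tract would lie there. RefSeq promoters (GRCm38.p6, from 250 bases before to 50 bases after the start) were found for 49 of the 64 symbols and for 9 of these 12 members. Each line shows 30 bases of the coding strand, 5′ to 3′, with capitals for the longest run of C and T that begins with C within 50 bases on either side of the start.
Eef1a1: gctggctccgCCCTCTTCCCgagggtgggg
Eef2: acgtcagcggtCTCTTCCgccgcagccgcc
Eef1b2: tgcgtccgagcgCTTTCgttcaactccggc
Eif3f: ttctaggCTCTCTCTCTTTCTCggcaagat
Eif3g: ggcaccggaagCCTCTTCTactccggcttc
Eif4b: ctcagactccaCCCCTTCggccacatgtcg
Eif1ad: ttctccagcggCCCTTCCggtctgtgggat
Eif2b1: tgcttccctacgCCTCCgtgaagcgccgcc
Eif4a1: ggctttcaaactaCCCaatagggcgtccga
The lines lie at chr9:78481710-78481739 (minus strand), chr10:81176635-81176664 (plus strand), chr1:63176851-63176880 (plus strand), chr7:108934404-108934433 (plus strand), chr9:20898609-20898638 (minus strand), chr15:102073724-102073753 (plus strand), chr19:5366821-5366850 (plus strand), chr5:124579159-124579188 (minus strand) and chr11:69672451-69672480 (minus strand), in that order. The run of Eif3f was 15 bases long and began 4 bases before the start, and 2.96% of all 32851 promoter entries held a run as long. That of Eef1a1 was 10 bases long and began 5 bases before the start, which 14.4% of entries matched or exceeded. Eef2 had a run of 7 bases beginning at base 16 after the start, a length reached by 40.7% of entries, and Eef1b2 had only 5 bases, reached by 77.1%. Runs of 7 or more were present in 6 of 9 members of lowered efficiency (66.7%), in 19 of 36 other members tested (52.8%) and in 44.5% of all genes with an entry. These runs are a description of the annotated starts, and neither their use as a start site nor their part in translation was tested.

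In unstressed cells the factors were among the abundant mRNAs. Eef1a1, which codes for the main eEF1A and lies at chr9:78478453-78481724, had 7664 TPM in the control of H2O2 and KCl and ranked 5 of 20430 symbols. It was followed by Eef2 (1952 TPM, rank 54), Eif5a, whose protein helps ribosomes through difficult sequences (1643 TPM, rank 72), the cap helicase gene Eif4a1 (1336 TPM, rank 100), Eef1g (896 TPM, rank 160) and Eif1 (812 TPM, rank 174). At the lower end, Eif4g3 was at 9.82 TPM, Eif5a2 at 9.85 TPM and Eif4e3 at 1.54 TPM. Eif2c5 was at 0 counts in each RNA library and Eif4e1b had at most 1 count. Eif4a3l1, a near copy of Eif4a3, had at most 7 RNA counts, yet 53.1 and 55.5 footprint counts-per-million (normalised for library size) in the control libraries. Reads of Eif4a3 and Eif4a3l1 may have been divided by the counting, and both are reported as uncertain. The same holds for the pairs Eif1a and Eif1ax, Eif2s3x and Eif2s3y, and Eif3j1 and Eif3j2, the last of which had 0 footprints in each library.

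Differences between groups were tested with edgeR's quasi-likelihood test on the authors' expected counts, and a member was called at an adjusted p (Benjamini-Hochberg, over all genes tested) below 0.05. Levels are given as normalised counts-per-million (CPM), in the order replicate 1 and replicate 2. A change in CPM is a change in a gene's share of the library, and less RNA per cell or fewer cells would not be seen.

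After 44 °C for 2 h more factor mRNAs fell than rose. Of the 60 members tested, 33 fell and 15 rose, with a median log2 fold change of −0.17, where 35.7% of all 12747 genes tested fell and 35.4% rose. The fall was shared by the cap-binding and helicase group (7 of 10 members fell, 1 rose), by eIF3 (9 of 14 fell, 3 rose) and by the factors of start codon choice and subunit joining (6 of 9 fell, 1 rose). Core elongation factors were divided: Eef1d and Eef2 rose, Eef1g fell, and Eef1a1 and Eef1b2 were not called.
Eef2k, the kinase that inhibits eEF2 (chr7:120842642-120907219), was at 58 and 60.9 CPM in the control and 28.1 and 28.8 CPM at 44 °C, with no overlap (log2 fold change -1.06 ± 0.05 (SE), edgeR adjusted p = 5.84e-10). Eif4g3, a second cap scaffold, changed from 38.2 and 36.9 to 20.5 and 20.2 CPM (-0.88 ± 0.06 (SE), edgeR adjusted p = 1.1e-08). Eif2d, which can place initiator tRNA without eIF2, moved by -0.75 and Eif2b3, the γ subunit of eIF2B, by -0.64 on the log2 scale, both called.
In the other direction, the translation repressor gene Eif4ebp2 rose from 191 and 197 to 291 and 291 CPM (0.59 ± 0.04 (SE), edgeR adjusted p = 1.06e-08), while its paralog Eif4ebp1 fell from 119 and 127 to 76.3 and 80.3 CPM (-0.65 ± 0.05 (SE), edgeR adjusted p = 2.6e-08). Eif2b2, the β subunit of eIF2B, rose by 0.54 on the log2 scale, from 39.8 and 39.7 to 55.6 and 60.4 CPM. The upstream neighbour of Eif2b2, Dlst, carried a call of transcription past its end in all 16 RNA libraries, controls included. The part of such transcription in the level of Eif2b2 was not tested.

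After the milder and longer heat, 42 °C for 8 h, most members were higher than in the same control. Of 60 members 43 rose and 4 fell, with a median of 0.24, where 31.7% of all genes rose and 31.9% fell. On the authors' TPM, tested with limma as log2(TPM + 1), 20 rose and 9 fell. The median of all genes was itself −0.16 on that scale and that of the members 0.05, so the members lay above the median gene on both scales, but a direction against control held for fewer of them. Eif1a, Eif2b1, Eif3f, Eif4a3, Eif4b and Eif4h, which rose in counts, were below 0 on the TPM scale.
The leading increases were also called on the TPM scale. Eef1e1, an auxiliary protein of the tRNA synthetase complex, rose from 24.4 and 23 to 42.1 and 38.3 CPM (0.76 ± 0.06 (SE), edgeR adjusted p = 1.69e-07). Eif5a (chr11:69916712-69921958) rose from 511 and 534 to 844 and 792 CPM (0.65 ± 0.04 (SE), edgeR adjusted p = 1.65e-08), and both libraries lay well above both controls. Eif5, which triggers GTP hydrolysis on eIF2 at the start codon, rose by 0.58, the eIF3 subunit gene Eif3b by 0.51, the α subunit gene of eIF2, Eif2s1, by 0.48 and the main cap scaffold gene Eif4g1 by 0.47. All 5 core elongation factors tested rose, by 0.22 (Eef1a1) to 0.42 (Eef1d), though on the TPM scale Eef1a1 and Eef2 were at 0.03 and not called.
The 4 that fell were Eif4ebp1, Eif3c, Eif4ebp2 and Eef2k. Eif4ebp1 had 66.9 and 69.2 CPM against 119 and 127 CPM in the control (-0.86 ± 0.05 (SE), edgeR adjusted p = 4.13e-09). Eif3c, a core eIF3 subunit, had 489 and 487 against 619 and 606 CPM (-0.33 ± 0.04 (SE), edgeR adjusted p = 5.07e-06).
Both heat groups share a control, so they were also compared directly. At 42 °C for 8 h 46 members were higher than at 44 °C for 2 h and 3 were lower, where 37.9% of all genes were higher and 37.2% lower. On the TPM scale, where the median of all genes was −0.20, 34 were higher and 16 lower. Eif5a differed most among the members of at least 10 CPM, by 1.11 ± 0.04 (SE), edgeR adjusted p = 2.97e-11, and next was Eif2b3, by 1.06. Temperature and time both differ between these groups, and their effects cannot be told apart.

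**Figure D1:**
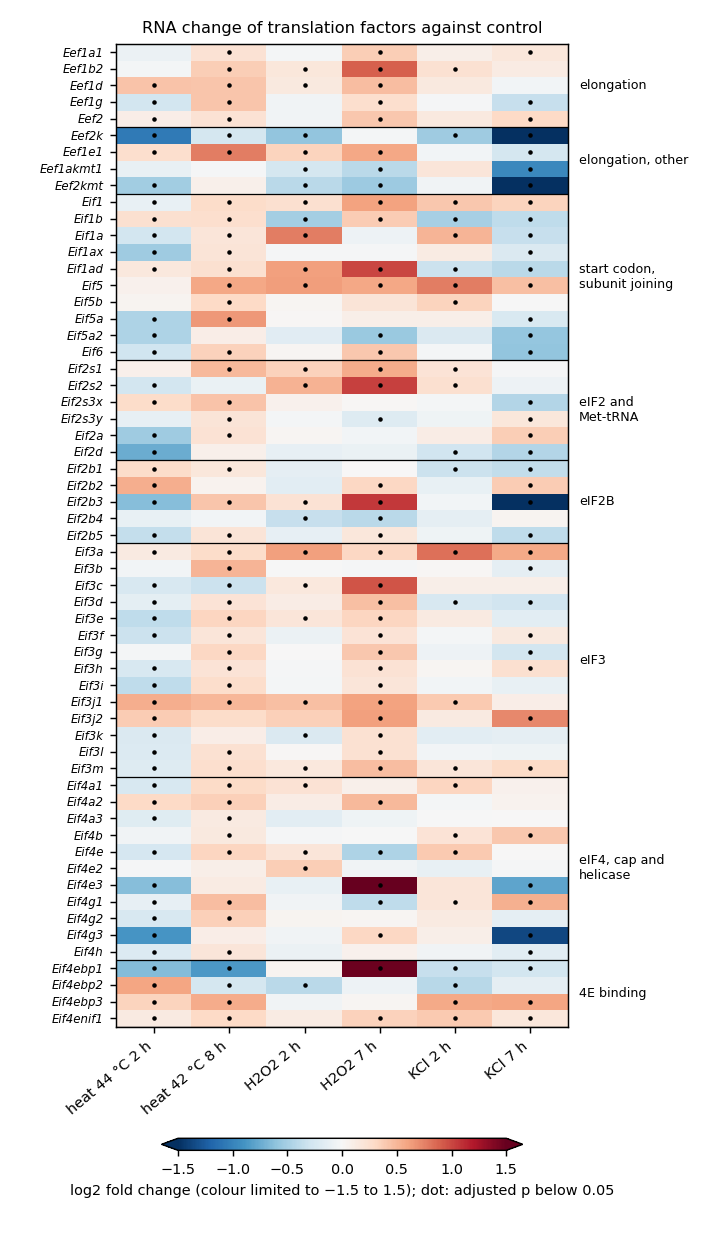
RNA log2 fold change of the members against their control, in 6 stress groups (columns), with members ordered by role (rows). Red is higher and blue is lower, a dot marks an edgeR adjusted p below 0.05, and Eef1a2 and Eef1akmt2 are left out for their low counts. The 42 °C column is mostly red, with 43 of 60 members higher, and the 44 °C column mostly blue, with 33 of 60 lower.

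After 2 h of H2O2, 18 of 61 members rose and 7 fell, where 27.3% of all 13256 genes tested rose and 26.5% fell. The share that rose was near that of all genes, and the share that fell was below it. Without RNA replicate 2 of this group 15 were called in all. Eif1a, a factor that helps scanning, rose from 157 and 154 CPM in the control to 260.0 and 269 CPM (0.77 ± 0.06 (SE), edgeR adjusted p = 1.54e-07). Its reads may have been divided with those of Eif1ax, so its level is uncertain. Eif5 rose from 382 and 383 to 578 and 604 CPM (0.63 ± 0.07 (SE), edgeR adjusted p = 7.23e-06), and the eIF3 scaffold gene Eif3a rose by 0.61. Eef2k fell from 59 and 59.2 to 39.4 and 39 CPM (-0.59 ± 0.07 (SE), edgeR adjusted p = 1.24e-05). Eif1b, a paralog of the start codon factor eIF1, fell from 18.7 and 17.6 to 12.7 and 12.8 CPM (-0.51 ± 0.09 (SE), edgeR adjusted p = 0.000332).
KCl for 2 h gave a like number of calls: 16 rose and 8 fell, where 27.2% of all genes rose and 27% fell. On the TPM scale the split was 9 higher and 17 lower, so no direction is given for the members as a whole. H2O2 and KCl share their control libraries, and a value that is extreme in the control would move both. Eif3a was at 1009 and 1206 CPM against 592 and 657 CPM in the control (0.83 ± 0.08 (SE), edgeR adjusted p = 1.57e-06), and Eif5 at 603 and 704 CPM (0.77 ± 0.07 (SE), edgeR adjusted p = 8.66e-07). Eif1a (0.51) was higher, and Eef2k (-0.54) and Eif1b (-0.50) were lower, all called.

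With H2O2 for 7 h factor mRNAs were mostly higher. Of 61 members 35 rose and 7 fell, with a median of 0.23, where 39.4% of all genes rose and 31.1% fell. Each of the 6 core elongation factors rose, though Eef1a2 only on 39 and 23 counts against 3 and 0 in the control. Of 14 eIF3 subunits 13 rose, with 0 lower. The exception among eIF3 subunits was Eif3b, at -0.02 (edgeR adjusted p = 0.741).
Eif4ebp1, which codes for the 4E-BP1 repressor of cap-dependent initiation (chr8:27260327-27275656), rose from 92.2 and 95.8 to 269 and 251 CPM (1.47 ± 0.06 (SE), edgeR adjusted p = 4.15e-11). At 2 h of H2O2 it was at 95.6 and 97.2 CPM, close to the control, and was not called. Eif2b3 (chr4:117019399-117086852) rose from 33.2 and 32.5 to 66.9 and 70 CPM (1.06 ± 0.08 (SE), edgeR adjusted p = 4.01e-08). The other eIF2B subunits did less: Eif2b2 rose by 0.31 and Eif2b5 by 0.17, Eif2b4 was lower with -0.40, and Eif2b1 was not called at 0.01.
The eIF2 subunits were as uneven. Eif2s2 (eIF2β) rose from 279 and 276 to 538 and 589.8 CPM, a log2 change of 1.02, and Eif2s1 (eIF2α) rose by 0.55. Eif2s3x (eIF2γ) had 0.02 and was not called (edgeR adjusted p = 0.824). Eif3c rose by 0.94 and Eif1ad, a protein related to eIF1A, by 1.00.
The cap-binding genes moved apart. Eif4e, the main cap-binding protein, fell from 163 and 155 to 115 and 116 CPM (-0.46 ± 0.06 (SE), edgeR adjusted p = 8.76e-06). Eif4e3, a cap-binding paralog of low level, rose from 1.88 and 1.57 to 14.7 and 13.9 CPM (3.04 ± 0.16 (SE), edgeR adjusted p = 4.17e-10). The other falls included Eif5a2, from 21.6 and 22.7 to 15.5 and 14.4 CPM (-0.56 ± 0.09 (SE), edgeR adjusted p = 6.96e-05), and Eif4g1, at -0.38.
Eef1a2, the eEF1A paralog of muscle and neurons, had 39 and 23 RNA counts after 7 h of H2O2, against 3 and 0 in the control and 0 in each of the other RNA libraries. The ratio of the summed counts, after scaling by library size, was 30.7 with an exact 95% interval of 10.03 to 153, which covers counting error only. In footprints it had 9 and 12 counts against 0 and 0. Eef1a1 RNA was at a mean of 7664, 9378 and 8067 TPM in the control, after 7 h of H2O2 and after 7 h of KCl. Eef1a2 was at 0.035, 1.095 and 0 TPM in the same groups. Whether reads of the related gene Eef1a1 were assigned to Eef1a2 was not tested, and the value is uncertain.

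Members were divided after 7 h of KCl, with 25 lower and 16 higher of 61, where 37.2% of all genes rose and 31.6% fell. On the TPM scale 32 were lower and 12 higher. Of the regulators and modifiers of elongation, Eef2k, Eef1e1, Eef1akmt1 and Eef2kmt were lower. Eef1akmt2 is also counted among the 25, on 3 and 0 counts against 22 and 19 in the control, but the tables hold a larger entry under its older symbol, Mettl10, and no direction is given for it.
Eef2k was at 17.6 and 17.6 CPM against 59 and 59.2 CPM in the control (-1.75 ± 0.08 (SE), edgeR adjusted p = 4.94e-10). Eif2b3 fell from 33.2 and 32.5 to 8.68 and 7.11 CPM (-2.05 ± 0.10 (SE), edgeR adjusted p = 8.96e-10), and Eif4g3 from 25.6 and 28.1 to 11.3 and 9.31 CPM (-1.37 ± 0.09 (SE), edgeR adjusted p = 1.94e-08). In each of these 3 genes the 2 KCl libraries lay below every library of the other groups of that experiment.
Among members of at least 10 CPM, those that rose were led by Eif3a (925 and 933 CPM, 0.57 ± 0.08 (SE), edgeR adjusted p = 2.81e-05), Eif4g1 (1790 and 1778 CPM, 0.53 ± 0.06 (SE), edgeR adjusted p = 3.3e-06) and Eif4ebp3, another 4E-BP gene (12.9 and 14.4 CPM, 0.59 ± 0.12 (SE), edgeR adjusted p = 0.000504). Eif4ebp3 was also the downstream neighbour of Ankhd1, with a DoG call (transcription past the end of Ankhd1) in 10 of 16 RNA libraries. Among these were 2 of 2 after 7 h of KCl and 1 of 2 in the control. The call was also made in 2 of 2 after 2 h of H2O2 (Eif4ebp3 at -0.05, not called) and in 2 of 2 at 44 °C (higher by 0.33). A call of transcription continuing from Ankhd1 into Eif4ebp3 itself was made in 2 of 16 libraries, 1 after 7 h of KCl and 1 at 42 °C. The part of such transcription in its level was not tested.
Long genes were among the lowest of the members: of the 7 members spanning at least 40 kb of the genome, 5 were below 0, with a median of −0.79. The 37 members spanning less than 20 kb had a median of −0.14. Across the 61 members the rank correlation of span with change was −0.19, while across 12885 genes it was 0.17. The 7 long members include Eef2k, Eif2b3 and Eif4g3, already named as low after 7 h of KCl. In the other groups the median of these 7 was −0.64 at 44 °C, 0.21 at 42 °C, −0.01 and 0.31 after 2 h and 7 h of H2O2, and 0.09 after 2 h of KCl. Genes share the same libraries, so these are descriptions.
H2O2 and KCl at 7 h were also compared with each other. The members were higher in H2O2 in 40 of 61 and lower in 8, where 41% of all genes were higher and 37.4% lower. Eif2b3 differed by 3.11 ± 0.10 (SE), edgeR adjusted p = 2.21e-12, the most among members of at least 10 CPM. It was followed by Eif4ebp1 (1.75), Eef2k (1.72) and Eif4g3 (1.67), while Eif4g1 differed by -0.91 and Eif4e by -0.47.

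**Figure D2:**
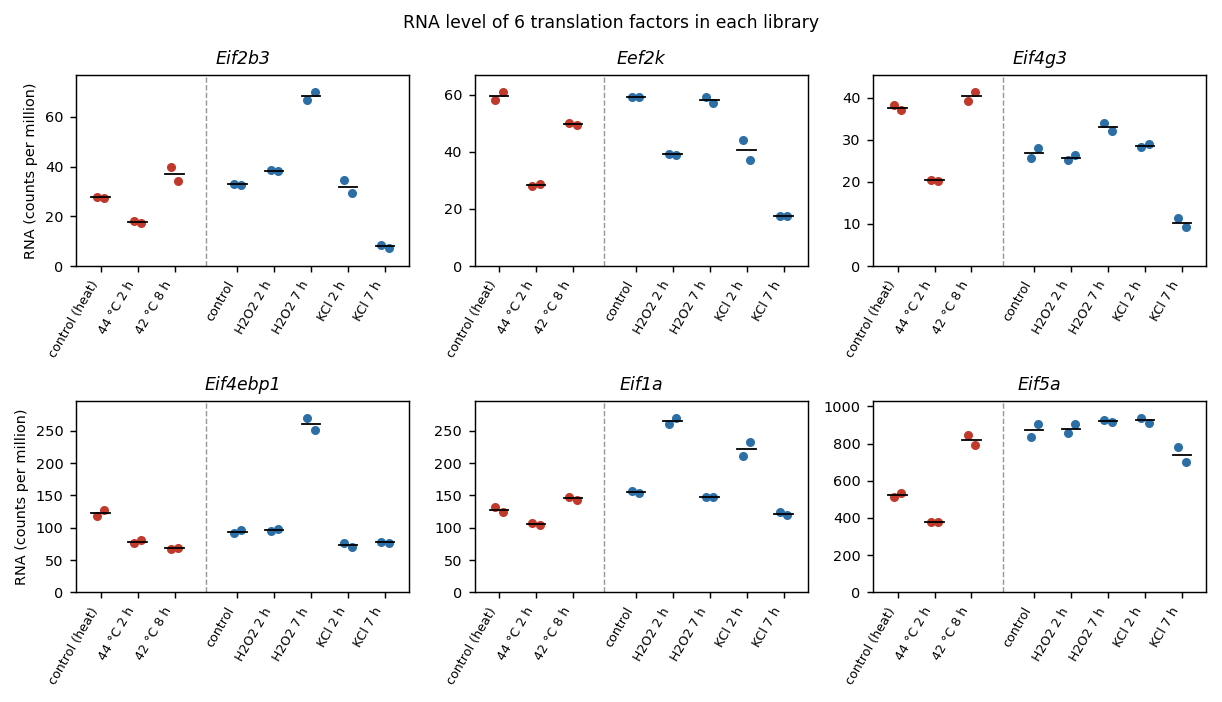
RNA level (normalised counts-per-million, linear axis from 0) of 6 members in each library, with points for replicates and bars for means. Red points are the heat experiment and blue points the H2O2 and KCl experiment, which were normalised separately, so levels are compared only on one side of the dashed line. Eif2b3 is highest after 7 h of H2O2 and lowest after 7 h of KCl.

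Footprints were then compared for the H2O2 and KCl groups. After 2 h of H2O2 no member of 59 was called by edgeR, where 1.91% of 10545 genes were. At an unadjusted p below 0.05 there were 5 members. The share of all genes at that unadjusted threshold was not counted, so these 5 are not read as a result. DESeq2 also called 0. After 2 h of KCl 1 member was called lower, where 5.06% of all genes were lower and 1.79% higher. It was Eif4ebp2, with 2.68 and 2.09 footprint CPM against 8.56 and 7.42 in the control (-1.73 ± 0.44 (SE), edgeR adjusted p = 0.0329), and these rest on 8 and 6 against 35 and 27 counts. The call was lost without either of the control or either of the KCl libraries.
After 7 h of H2O2, 10 of 59 members fell and 3 rose, where 10.6% of all genes fell and 17.2% rose. The largest falls were in Eef1g (-1.12), Eif4b (-0.98) and Eif4e (-0.89), followed by Eef1akmt1 (-0.77), Eef1b2 (-0.75), Eef1a1 (-0.69), Eif4g1, Eef2 (-0.63), Eif3f and Eif2b1. Those that rose were Eif1, Eif3c and Eif4e3. Leaving out 1 library at a time left between 3 and 9 calls: 6 without footprint control replicate 2, and 3 and 5 without replicate 1 and replicate 2 of 7 h of H2O2.
With KCl for 7 h 9 members fell and none rose, where 9.83% of all genes fell and 10.5% rose. They included Eef2k (5.26 and 5.39 against 13.5 and 22.5 CPM in the control), Eif2b3 (12 and 23 against 67 and 73.9 CPM) and Eif4g3, whose RNA fell too, and Eef1g (-0.85 ± 0.27 (SE), edgeR adjusted p = 0.0437). The count was 4 without footprint control replicate 2, and 2 and 5 without replicate 1 and replicate 2 of 7 h of KCl.

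Translational efficiency is the footprint level relative to the RNA level of the same gene, and its change was tested as the difference between both kinds of library in one model of 20 libraries. After 7 h of H2O2 it fell in 12 of the 58 members tested and rose in 0, where 4.57% of all 10480 genes fell and 4.69% rose. The median over the members was −0.37, against 0.06 over all genes. Eef members stood lower, with a median of −0.73 over 9, of which 4 fell. The 5 core elongation factors among them had a median of −1.06, and the other Eef members were Eef2k, Eef1e1, Eef1akmt1 and Eef2kmt. The Eif members had a median of −0.36, and 8 of 49 fell.
Eef1a1 illustrates the divergence: its RNA was at 6140 and 5891 CPM in the control and 7840 and 7716 CPM after 7 h of H2O2. Its footprints were at 13946 and 14134 CPM and 8460 and 8899 CPM. Thus its RNA was higher and its footprints lower in both treated libraries, and efficiency changed by -1.06 ± 0.17 (SE), edgeR adjusted p = 0.00106.
For Eef2 (chr10:81176631-81182509) the RNA went from 2673 and 2763 to 3638 and 3532 CPM and the footprints from 4232 and 5386 to 2977 and 3231 CPM (-1.03 ± 0.17 (SE), edgeR adjusted p = 0.00154). Eef1b2, the nucleotide exchange subunit of eEF1B (chr1:63176831-63180486), had the lowest value, with RNA going from 238 and 249 to 462 and 447 CPM and footprints from 625 and 535 to 331 and 357 CPM (-1.65 ± 0.21 (SE), edgeR adjusted p = 0.000189). No footprint library of the treated group overlapped a control library in these 3 genes.
Eef1g, the structural γ subunit of eEF1B, had RNA of 626 and 594 CPM in the control and 723 and 733 CPM after H2O2, with footprints of 1232 and 1871 and 626 and 801 CPM (-1.37 ± 0.30 (SE), edgeR adjusted p = 0.00849). Its adjusted p by edgeR was 0.0531 without footprint control replicate 2, and also without footprint replicate 1 of 7 h of H2O2. Eef1d, the remaining subunit, had footprints of 361 and 505 CPM in the control and 296 and 423 CPM after H2O2, which overlapped, and was not called (-0.73 ± 0.29 (SE), edgeR adjusted p = 0.131).
Together the 6 core elongation factors held 1.05% and 1.03% of RNA counts in the control and 1.35% and 1.30% after 7 h of H2O2. Their share of footprints was 2.12% and 2.27% in the control, 1.63% and 1.75% after 2 h and 1.41% and 1.43% after 7 h of H2O2. The share of the Eif symbols in footprints was 1.45% ± 0.012 (SD, n = 2) in the control and 1.36% ± 0.062 (SD, n = 2) after 7 h of H2O2.

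**Figure D3:**
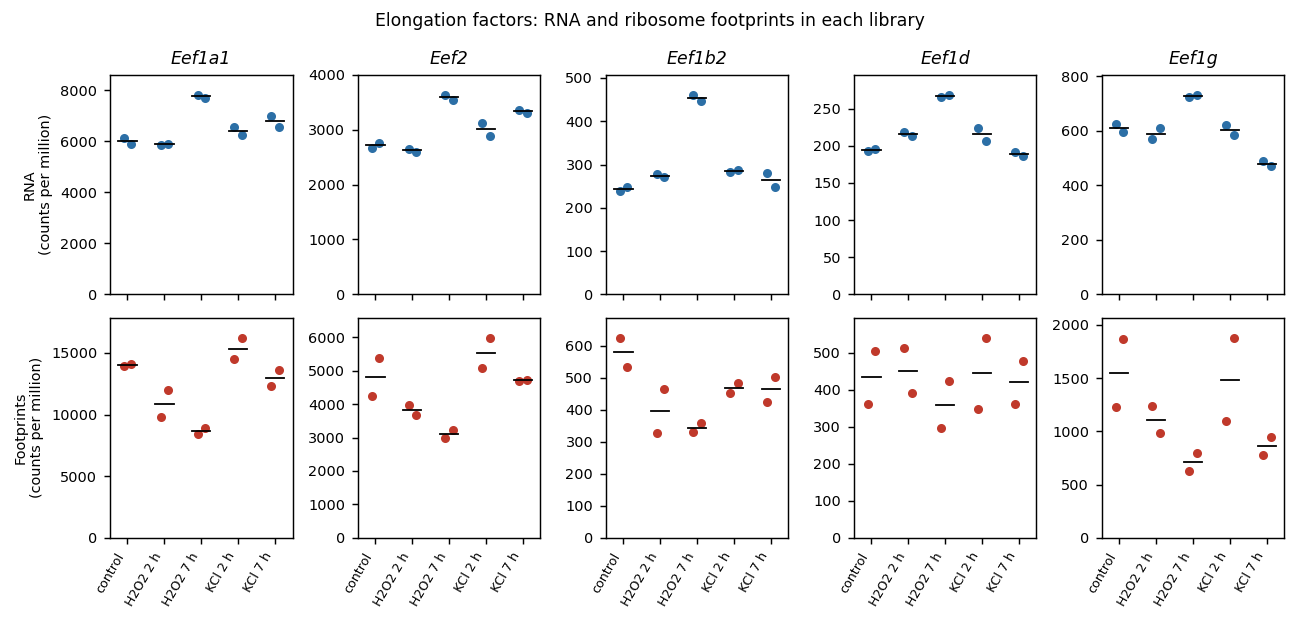
RNA (upper row, blue) and footprint (lower row, red) levels of 5 elongation factors in normalised counts-per-million, on linear axes from 0, with points for the 2 replicates and bars for means. After 7 h of H2O2 RNA is above the control in each gene, while footprints are below it in Eef1a1, Eef2, Eef1b2 and Eef1g and overlap it in Eef1d.

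Among the initiation factors, Eif4b, which stimulates the eIF4A helicase, had RNA of 602 and 608 CPM against 591 and 619 CPM in the control, which was not called, and footprints of 275 and 306 CPM against 507 and 641 CPM (-0.98 ± 0.19 (SE), edgeR adjusted p = 0.00377). The helicase gene Eif4a1 itself had -0.58. Of the eIF3 subunits, 3 of 13 tested fell in efficiency, where 4.57% of all genes fell. They were Eif3f (-0.82 ± 0.15 (SE), edgeR adjusted p = 0.00216), Eif3g (-0.66) and Eif3h (-0.55). Of eIF2B, Eif2b3 (-0.90) and Eif2b1 (-0.63) fell, and Eif1ad (-0.76) completed the 12.
Among 8 factors listed as TOP mRNAs (Eef1a1, Eef1b2, Eef1d, Eef1g, Eef2, Eif3e, Eif3f and Eif3h), 6 fell, with a median of −0.93, where 4.57% of all genes fell. The list holds the core elongation factors already described, so these counts are not independent of theirs. The 10 tested eIF3 subunits outside that list had a median of −0.39, with 1 lower. These lists were written with earlier results of these data known, and the difference between them was not tested.
Some factors kept pace with their RNA. Eif1 had 0.60 in RNA and 0.55 in footprints, and Eif4e3 had 3.04 and 3.14, on footprint counts of 17 and 17 against 2 and 2. Their efficiency changes were -0.05 and 0.18, and neither was called.
Leaving out 1 library gave 6 to 10 calls in place of 12: 6 without any of the 4 RNA libraries and 7 without footprint replicate 1 of 7 h of H2O2. On the TPM scale 6 members were lower, with a median of −0.17 over members against 0.22 over all genes, so the members lay below the median gene by a like amount.

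**Figure D4:**
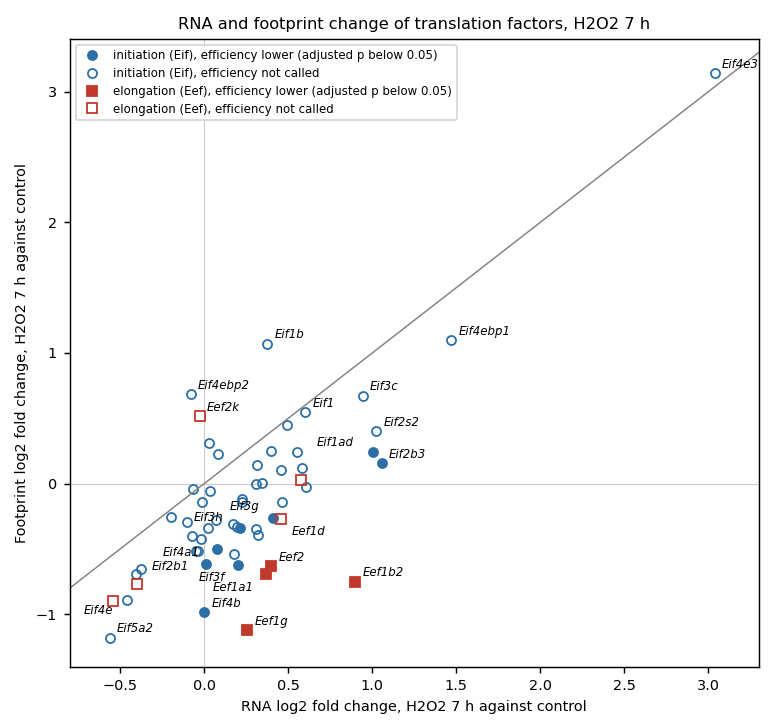
Footprint log2 fold change (vertical axis) against RNA log2 fold change (horizontal axis) after 7 h of H2O2, for the 58 members tested in both kinds of library. The line marks equal change, filled symbols had a lower translational efficiency at an edgeR adjusted p below 0.05, and the 4 filled squares, Eef1a1, Eef2, Eef1b2 and Eef1g, lie to the right of 0 in RNA and below 0 in footprints.

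The time course of H2O2 differed among members. At 2 h, efficiency fell in 5 of 58 members and rose in 1, where 7.46% of all genes fell and 3.98% rose. Eef1b2 was already lower (-0.75 ± 0.21 (SE), edgeR adjusted p = 0.026). The other falls were in mRNAs of initiation: Eif1a (-0.98 ± 0.21 (SE), edgeR adjusted p = 0.00637), Eif5 (-0.79 ± 0.18 (SE), edgeR adjusted p = 0.00997), Eif3a (-0.58) and the 4E transporter gene Eif4enif1 (-0.56).
For Eif1a and Eif5 the RNA had risen, and footprints were 142 and 194 CPM against 190.0 and 195 CPM and 148 and 159 CPM against 170.0 and 167 CPM, so groups lay close or overlapped in footprints. The efficiency of Eif1a is also uncertain because its reads may have been divided with those of Eif1ax. Eef2k was the member that rose, with footprints of 32.7 and 28.5 CPM against 13.5 and 22.5 CPM while its RNA was lower (1.30 ± 0.26 (SE), edgeR adjusted p = 0.00451). The number of calls went to 15 without footprint replicate 2 of that group, which leaves the shallowest library, and to 3 without any of the 4 RNA libraries.
From 2 h to 7 h, tested directly, efficiency was lower at 7 h in 6 members and higher in 1, where 2.27% of all genes were lower and 4.93% higher. The lower values were in Eef1a1, Eef2, Eef1b2, Eif3f, Eif2b1 and the eIF3 subunit gene Eif3k, and the higher one in Eif4ebp2 (1.57 ± 0.28 (SE), edgeR adjusted p = 0.00568), on 3 and 21 footprints at 2 h and 49 and 41 at 7 h. Against the control, Eif3k was at 0.35 at 2 h and -0.34 at 7 h and Eif2b1 at 0.11 and -0.63, and of these 4 values only that of Eif2b1 at 7 h was called. These 7 calls became 13 without footprint replicate 2 of 2 h, 3 without footprint replicate 1 of 7 h, and 2 to 4 without any of the 4 RNA libraries.

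KCl changed the efficiency of few members. At 2 h 2 fell and none rose, where 9.18% of all genes fell and 3.58% rose. They were Eif4enif1, with footprints of 38.6 and 36.2 CPM against 49.4 and 53.9 CPM and RNA of 133 and 129 CPM against 100.4 and 99.5 CPM (-0.86 ± 0.15 (SE), edgeR adjusted p = 0.00099), and Eif4ebp2 (-1.34 ± 0.34 (SE), edgeR adjusted p = 0.0137). At 7 h 1 fell and none rose, where 3.88% of all genes fell and 1.69% rose. It was Eif1ad, with 6.01 and 7.09 footprint CPM against 21.8 and 15.1 (-1.05 ± 0.28 (SE), edgeR adjusted p = 0.0366), and its edgeR adjusted p ranged from 0.0155 to 0.153 when 1 library was left out. At 2 h 1 call was left without footprint control replicate 1 or footprint KCl replicate 2.
Elongation factors were not called in efficiency at either time of KCl: the median of the 5 core factors was −0.06 at 2 h and −0.30 at 7 h, and their share of footprints was 2.23% ± 0.20 (SD, n = 2) and 1.80% ± 0.13. The falls of Eef2k, Eif2b3 and Eif4g3 after 7 h of KCl had efficiency changes of 0.04, 0.12 and 0.02, so footprints and RNA fell by like amounts.
Compared directly at 7 h, efficiency was lower in H2O2 than in KCl in 15 members and higher in 1, where 4.76% of all genes were lower and 7.29% higher. Of these 15, 4 were Eef symbols (Eef1b2, Eef1a1, Eef2 and Eef1e1) and 11 were Eif symbols. Eef1b2 differed by -1.24 ± 0.21 (SE), edgeR adjusted p = 0.00142, Eif2b3 by -1.02, Eif2s3x by -0.83 and Eif4e by -0.77. The 1 higher in H2O2 was Eif4ebp2 (1.24 ± 0.27 (SE), edgeR adjusted p = 0.00662). Leaving out 1 library left 5 to 18 calls. There were 5 to 8 without any of the 4 RNA libraries, 7 without footprint replicate 1 of H2O2 and 6 without footprint replicate 2 of KCl.

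**Figure D5:**
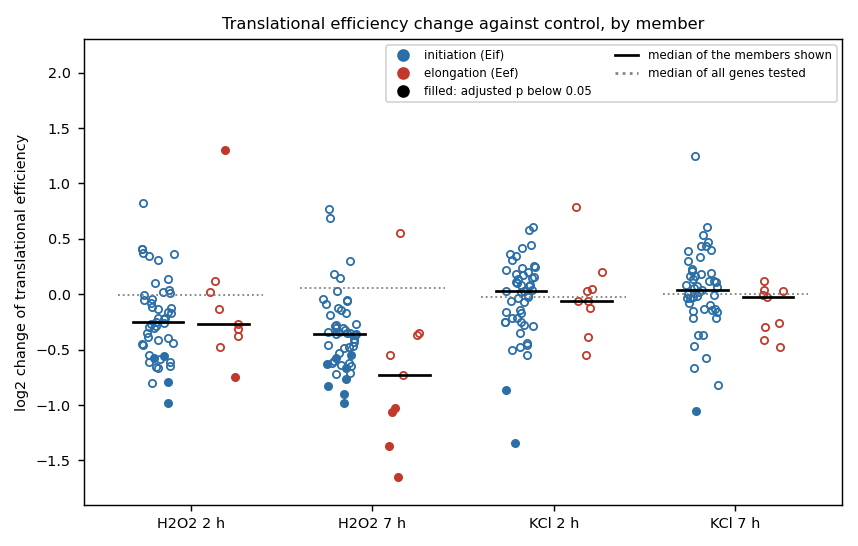
Log2 change of translational efficiency against control for each member in 4 stress groups, with Eif members in blue and Eef members in red. Filled points had an edgeR adjusted p below 0.05, black bars are medians of the members shown and dotted lines medians of all genes tested. After 7 h of H2O2 the Eef median is −0.73 and the Eif median −0.36, against 0.06 over all genes.

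A further 29 genes of translation and its control, listed by name, were set beside the factors. At 7 h of H2O2 14 of them rose and 6 fell in RNA, where 39.4% of all genes rose and 31.1% fell. In efficiency 4 fell and 1 rose, where 4.57% fell and 4.69% rose. Pabpc1, the main poly(A)-binding protein and itself a TOP mRNA, fell in efficiency, with -3.43 ± 0.25 (SE), edgeR adjusted p = 7.41e-07 after 2 h and -1.65 ± 0.24 (SE), edgeR adjusted p = 0.000588 after 7 h of H2O2, and -1.80 after 2 h of KCl. Its paralog Pabpc4 had -2.08, -1.48 and -1.08, all called. From 2 h to 7 h of H2O2, tested directly, the efficiency of Pabpc1 was higher at 7 h (1.78 ± 0.24 (SE), edgeR adjusted p = 0.00146), where that of Eef1a1, Eef2 and Eef1b2 was lower. Denr, a reinitiation factor, had -0.81 and Hbs1l, a ribosome rescue factor, -0.54 after 7 h of H2O2.
Of the listed genes that act on eIF2 phosphorylation, the kinase genes Eif2ak1 and Eif2ak4 were not called in RNA at either time of H2O2. Eif2ak2 was lower in RNA at 2 h (-0.26) and higher at 7 h (0.46). Eif2ak3 was lower in RNA at 7 h (-0.33) but higher in footprints (0.88), both called. It was the 1 listed gene that rose in efficiency at 7 h (1.20 ± 0.25 (SE), edgeR adjusted p = 0.00707). Ppp1r15a, which recruits a phosphatase to eIF2, rose in RNA by 2.81 and 2.59 after 2 h and 7 h of H2O2 and by 2.51 and 0.74 after 2 h and 7 h of KCl. Ppp1r15b, also on the list, rose in RNA by 1.18 after 2 h of H2O2, with an efficiency change of -0.66, both called. Atf4, a transcription factor translated preferentially when eIF2 is phosphorylated, rose by 1.22 in RNA and by 1.18 ± 0.23 (SE), edgeR adjusted p = 0.00329 in efficiency after 2 h of H2O2. In heat its RNA was lower, with -0.75 at 44 °C and -0.44 at 42 °C. At 7 h of H2O2 its RNA was higher by 1.46, while its efficiency was not called (0.30).

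The authors' DoG calls (transcripts that run past the end of a gene) listed 44 neighbouring pairs with a member upstream and 28 with a member downstream, of 6399 pairs. Members were called upstream in 16 and 14 pairs of 44 in the control of H2O2 and KCl, in 23 and 23 after 2 h of H2O2 and in 11 and 10 after 7 h of KCl. Over all pairs the shares were 24.2% and 25.2% in that control, 34.4% and 35.7% after 2 h of H2O2 and 23.8% and 23.4% after 7 h of KCl.
Eif2s1 and Eif3c had a DoG in all 16 libraries. That of Eef1a1 was called in 0 of 4 control libraries, in both libraries of 44 °C, of 42 °C, of H2O2 for 7 h and of KCl for 7 h, in 1 of 2 after 2 h of H2O2 and in 0 of 2 after 2 h of KCl. Read-in, transcription that continues into the neighbour, was called for 8 of the 72 pairs, against 349 of all 6399. The most frequent was from Eif4a1 into Cd68, in 8 of 16 libraries, 1 of them a heat control, and the next from Eef1d into Naprt, in 6. Both libraries of 2 h of KCl had read-in from Eef2 into Dapk3. Whether these calls depend on a gene's level was not tested.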

How the data were processed

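The authors deposited expected counts per gene and TPM values for each library; STAR, RSEM and Bowtie and the build mm10 are named in the submitters' processing notes, without versions or roles. The deposited expected counts held only whole numbers, so no rounding was needed. The authors' DoG and read-in calls are true or false per gene pair and library. A further 12 heat columns of the footprint tables have no labelled sample here and were left out.

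Symbols were read from the tables, and positions and promoters came from RefSeq (GRCm38.p6, the same assembly as mm10). The members and all lists were chosen with earlier results of these data known. Counts were tested with edgeR 4.0.16 (R 4.3.3): TMM normalisation, filterByExpr within each kind of library, quasi-likelihood fits and Benjamini-Hochberg adjustment over all genes, at 0.05. Heat RNA, H2O2 and KCl RNA, and footprints were fitted separately with all their groups. Efficiency was an interaction term over 20 libraries. The fits were also run on counts simulated from the same kind of model, which checks the code and not the model.

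Alternatives were DESeq2 1.42.0, RLE normalisation, no count filter, limma 3.58.1 on log2(TPM + 1), voom, only the groups compared, a replicate block and leaving out each library. Genes named were the 2 highest and 2 lowest called members per comparison with at least 10 CPM, and a list of core factors. Eif4e3, Eef1a2 and the untested or uncalled members outside that list were named after their values were seen. Replicates of each group differed, with correlations of log2 CPM from 0.997 to 0.999 in RNA and from 0.961 to 0.980 in footprints.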

Additional observations from a re-analysis of the deposited data

Results flagged for a closer look

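The change of translational efficiency differed between 2 h and 7 h of H2O2 in 7 members, by the test of that difference itself (edgeR's quasi-likelihood test, adjusted over all genes, with 2 replicates in each group). The log2 difference, 7 h minus 2 h, was −0.69 for Eef1a1, −0.90 for Eef1b2, −0.72 for Eef2, −0.73 for Eif2b1, −0.74 for Eif3f, −0.69 for Eif3k and 1.57 for Eif4ebp2. The value of Eif4ebp2 rests on few footprints at 2 h. As given above, the number of calls depended on which libraries were included.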

How the results depend on the processing

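Of 33 named values recomputed in 375 alternatives, 363 kept their direction and call and 0 reversed. The other 12 kept their direction and lost the call. These were 10 for Eif1ad in efficiency at 7 h of KCl and 2 for Eef1g in efficiency at 7 h of H2O2. Most of the 33 were picked among called members for the size of their change, so these numbers do not describe the other calls. Counts of RNA calls moved by less than 1.5 times in the alternatives run, except at 42 °C on log2(TPM + 1), with 29, and at 2 h of H2O2 without RNA replicate 2 of that group, with 15, where leaving out 1 library gave 15 to 20.

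On log2(TPM + 1), footprint calls at 7 h of H2O2 numbered 8. Efficiency calls there were 6 at 7 h of H2O2, 1 at 2 h of KCl, 0 at 7 h of KCl and 4 between the H2O2 times, and the efficiency medians of Eef members were −0.33 at 2 h and −0.60 at 7 h of H2O2, with −0.16 for Eif members at 7 h. With only the groups compared, footprint calls were 20 for 7 h of H2O2 and 0 for 2 h of KCl, and efficiency calls 3 at 2 h of H2O2, 0 at 7 h of KCl and 3 between the H2O2 times. RLE normalisation gave 2 footprint calls at 2 h of KCl. DESeq2 gave efficiency calls of 11 and 20 for H2O2 (2 h, then 7 h), 5 and 3 for KCl and 13 between the H2O2 times, and voom gave 1 and 0 for KCl. Over core factors only, the Eef medians were −0.37 and −1.06 for H2O2 (2 h, then 7 h) and −0.30 for KCl after 7 h. Without a count filter the Eef median at 2 h of H2O2 was −0.21.

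With 1 library left out, footprint calls ranged over 3 to 9 (7 h of H2O2), 0 to 0 (2 h of KCl) and 2 to 6 (7 h of KCl). Efficiency calls ranged over 3 to 15 and 6 to 10 (2 h and 7 h of H2O2), 1 to 3 and 0 to 1 (2 h and 7 h of KCl), 2 to 13 (between H2O2 times) and 5 to 18 (H2O2 against KCl). Eef medians ranged from −0.32 to −0.048 and from −1.01 to −0.56 (2 h and 7 h of H2O2), and from −0.078 to 0.19 and −0.23 to 0.051 (2 h and 7 h of KCl). Eif medians ranged from −0.35 to −0.17 and −0.46 to −0.32 (H2O2), and from −0.15 to 0.085 and −0.08 to 0.14 (KCl), so the KCl medians have no fixed sign. The cause was not tested.

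Groups share replicate numbers, and the labels do not say what a number stands for. Deviations of same-numbered libraries correlated by −0.13 to 0.17 in RNA, over pairs within each experiment. In footprints the 6 pairs among control, 7 h of H2O2 and both times of KCl correlated by 0.20 to 0.44, and the 4 pairs with 2 h of H2O2 by −0.40 to −0.040. Since not every pair was above 0.1, the pairing was used as an alternative. With the replicate as a block, 48, 49, 26, 43, 26 and 43 RNA members were called for 44 °C, 42 °C, H2O2 (2 h, 7 h) and KCl (2 h, 7 h). Footprint calls were 0, 17, 1 and 9 and efficiency calls 7, 13, 3 and 1 for the same 4 groups of H2O2 and KCl, and 10 members differed in efficiency between the H2O2 times. The block moved no count of calls by over 1.5 times.

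Depth limits the footprint values: their libraries were the shallower ones, and with 2 replicates a change that was not called is not shown to be absent.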

Other observations

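Eef1akmt2, a methyltransferase of eEF1A, appears in the tables under that symbol and under its older symbol Mettl10. The counts of both entries together, before any scaling for library size, were 564 and 403 in the control of H2O2 and KCl, 330 and 388 after 2 h of H2O2, 341 and 273 after 7 h of H2O2, 255 and 307 after 2 h of KCl and 296 and 189 after 7 h of KCl. The entry under Eef1akmt2 alone held at most 28 RNA counts in a library of that experiment.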
